A study of Mus musculus with 2 samples.

Results

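The enzymes described here make, interconvert and clear steroids, oxysterols, fatty acids and foreign compounds. They are the cytochrome P450s, the hydroxysteroid dehydrogenases, the 5alpha-reductases, the Akr1c aldo-keto reductases, the sulfotransferases and the UDP-glucuronosyltransferases, with the cholesterol carrier Star. They were picked out by gene symbol, without the P450s of the Cyp26 and Cyp51 families and without symbols that end in -ps. The symbol rule holds no measured value, but the enzymes were chosen with earlier results of these data known. The files held 185 such genes among 55363, of which 104 are P450s and 171 are annotated as protein-coding. Of the others, 13 are pseudogenes whose symbol carries -ps with a number and 1 is an antisense gene, and all 14 were listed at 0 in both libraries. The steroid sulfatase symbol Sts, which the choice would also admit, had no match and is not analysed here.

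RNA from whole mouse uterus was sequenced on gestational day 4, counting the day of the vaginal plug as day 1, from females aged 6 to 8 weeks that had been mated with fertile males. There was 1 library of genotype f/f for Mettl14 and 1 of genotype d/d, where f/f is the usual sign for floxed alleles and d/d for their deleted form, and Mettl14 encodes a subunit of the m6A RNA methyltransferase. The sources used here do not give the recombinase behind the d/d allele, the strain, or how many animals a library holds. With 1 library a genotype no value has a replicate error and no difference could be tested, so the words higher and lower describe 1 library beside another, not genotypes. In bulk tissue, fewer cells of a type and less RNA per cell cannot be told apart.

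A P450 is a haem enzyme that splits molecular oxygen and inserts an oxygen atom into its substrate, with electrons from a reductase. Hydroxysteroid dehydrogenases and aldo-keto reductases interconvert hydroxyl and keto groups and so switch steroid hormones between active and inactive forms within a target tissue. Sulfotransferases and UDP-glucuronosyltransferases attach a sulfate or a glucuronic acid, which inactivates a hormone and makes it soluble. In the early pregnant mouse the steroids themselves come mainly from the corpora lutea of the ovary, and the uterine enzymes set how much of a hormone its receptors see.

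Values are FPKM, in which the fragments of a gene are divided by its length and by the mapped total, a scale per length on which levels of different genes can be set side by side. Differences are log2 ratios, d/d divided by f/f, of FPKM + 1, and a gene is called higher or lower when that ratio reaches 1 in size, a 2-fold difference of FPKM + 1. Fold values are ratios of FPKM without the added 1, and a pair of values gives f/f first and d/d second. The targeted gene Mettl14 had 13.6 FPKM in f/f against 3.21 in d/d, a log2 ratio of -1.80. Depth, estimated from the steps of the lowest values, was about 17750000 fragments in f/f against 20850000 in d/d, so that a 2 kb transcript at 1 FPKM corresponds to roughly 35.5 and 41.7 fragments.

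Of the 185 genes, 45 reached 1 FPKM in at least one library, and 12 of these were higher in d/d, 11 lower and 22 neither. Over all 16263 genes that passed the same filter, 18.4% were called, 10.2% higher and 8.28% lower. The median log2 ratio was -0.08 for the 45 enzymes and -0.01 for all genes, so the enzymes were spread to both sides of a middle near 0. Of the 45, 5 passed the filter through the d/d library alone and 7 through f/f alone, and such a gene is high in one library by the way it was admitted. Among the 33 at 1 FPKM or more in both libraries, 7 were higher and 5 lower, beside 7.93% and 5.78% of 14370 genes. The other 140 stayed below 1 FPKM in both libraries. Of these, 93 were listed at 0 in both, and the highest value among the 140 was that of Hsd17b14 at 0.772 FPKM.

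**Figure D1:**
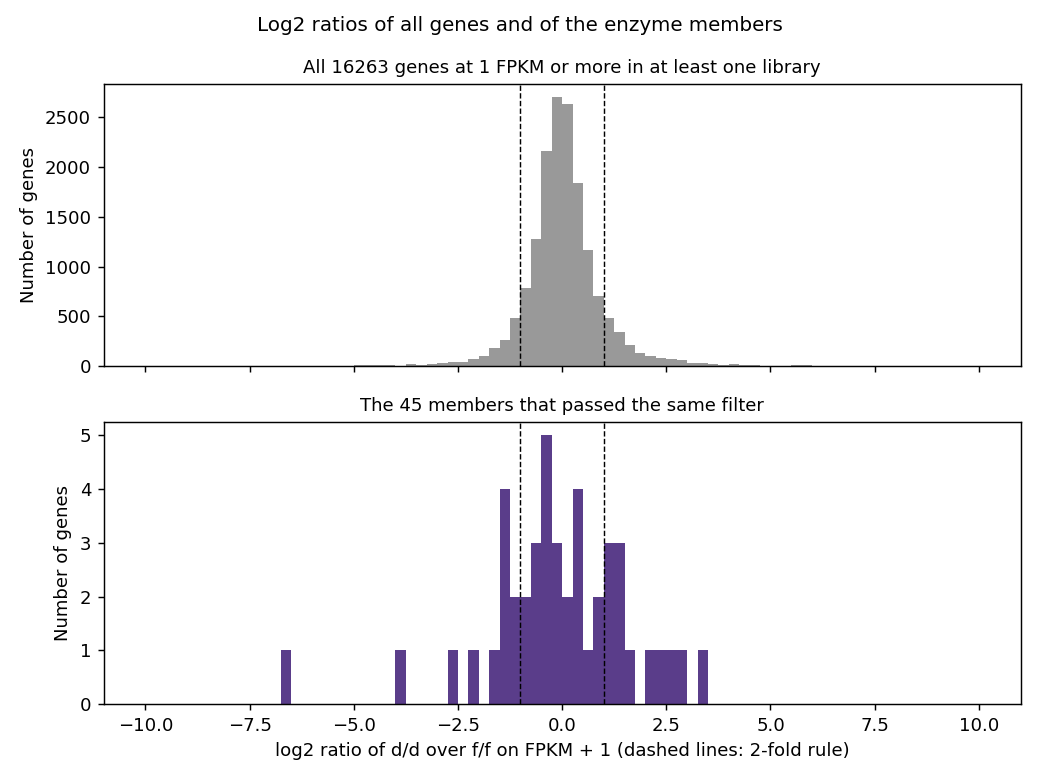
Histograms of log2 ratios, d/d divided by f/f, of FPKM + 1 (horizontal axis) against the number of genes (vertical axis), for all 16263 genes above and for the 45 measured enzymes below, with dashed lines at the 2-fold rule. The enzymes run from -6.63 (Sult1d1) to 3.30 (Akr1c12), with 23 of 45 outside the dashed lines.

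A few genes carried most of the summed level. The 5 highest genes made up 55.5% of the members' summed FPKM in f/f against 63.1% in d/d, and the sum itself was 861 FPKM in f/f against 957 in d/d. In f/f the order was led by Hsd17b10 at 125 FPKM, Sult1d1 at 122 and Hsd11b2 at 117. The d/d order was led by Hsd11b2 at 191 FPKM, Hsd17b11 at 126 and Akr1c14 at 120. Sult1d1 thus left the top of the order and Akr1c14, at 17.2 FPKM in f/f, entered it.

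**Figure D2:**
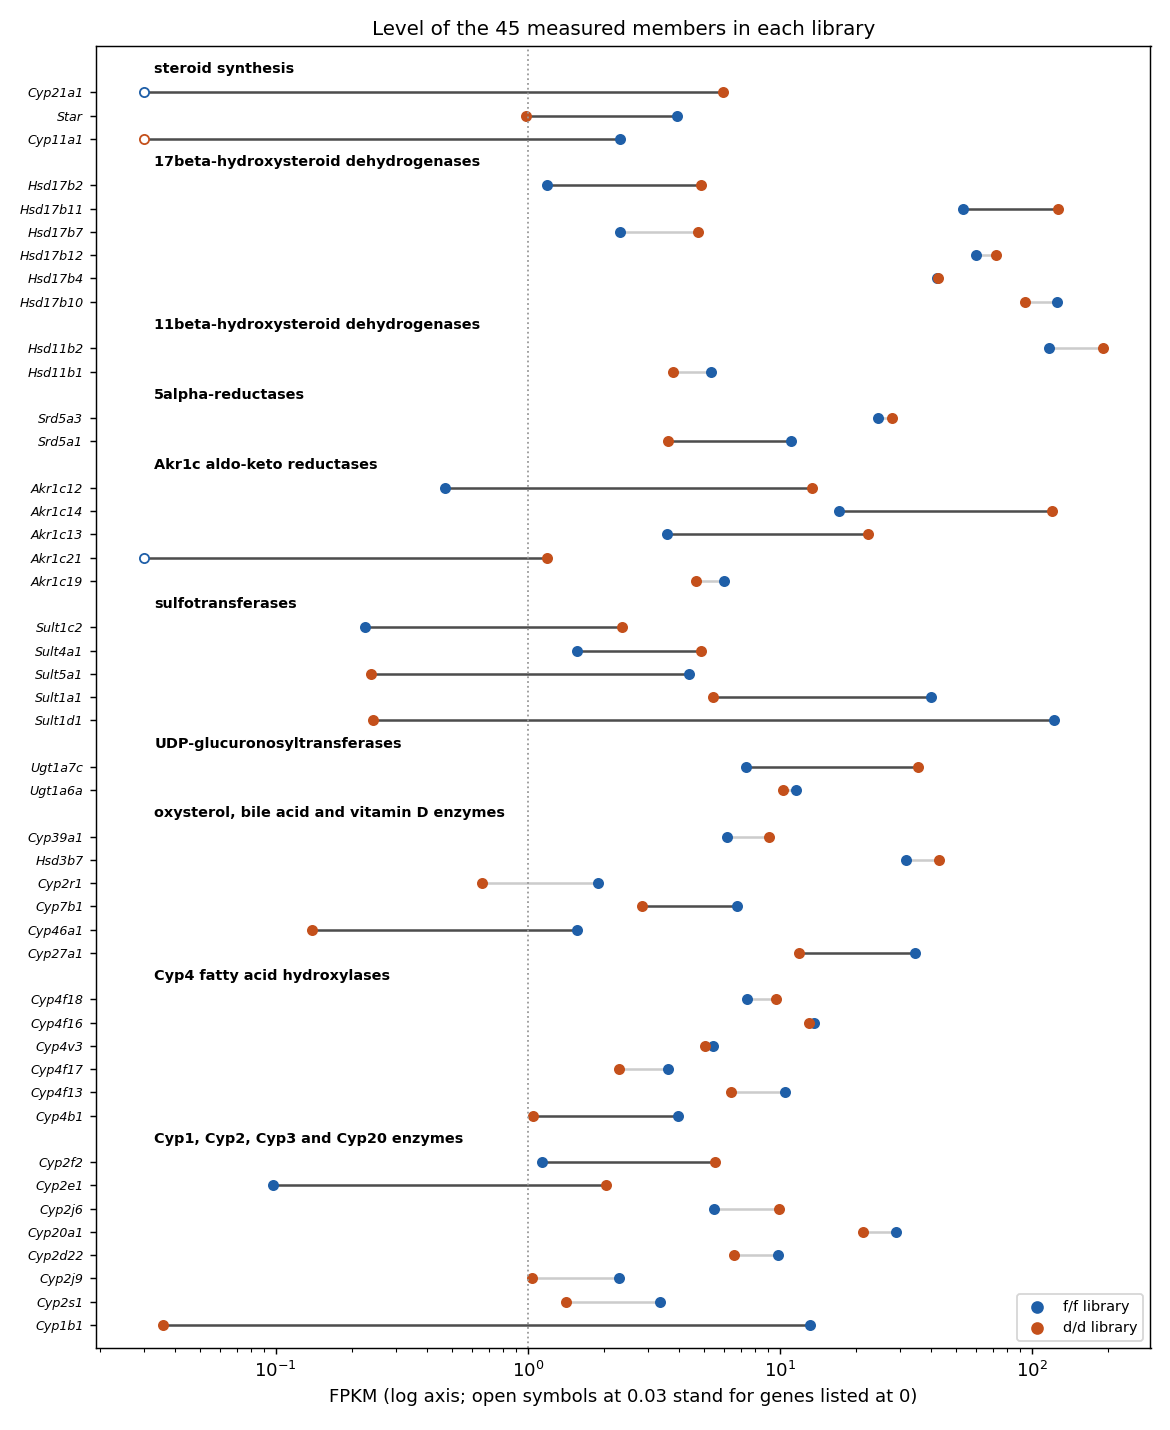
FPKM on a log axis for each of the 45 measured enzymes, grouped by role, with the f/f library in blue, the d/d library in orange, a dark line for genes past the 2-fold rule and a dotted line at 1 FPKM. Open symbols mark the genes listed at 0, which are Cyp21a1 and Akr1c21 in f/f and Cyp11a1 in d/d.

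The first steps of steroid synthesis were scarcely represented. Of 13 genes of this group, 9 were listed at 0 in both libraries, among them Cyp17a1, the 17alpha-hydroxylase, Cyp19a1, the aromatase that makes estrogens, and Hsd3b1 and Hsd3b6, which turn pregnenolone into progesterone. Star, which carries cholesterol into the mitochondrion, was 3.92 FPKM in f/f against 0.982 in d/d (log2 ratio -1.31). Cyp11a1, which cuts the cholesterol side chain to give pregnenolone, was 2.32 FPKM in f/f but listed at 0 in d/d (log2 ratio -1.73). Both were low genes that were lower in the d/d library.

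Cyp21a1, the adrenal 21-hydroxylase of progesterone, showed the opposite order. It was listed at 0 in f/f against 5.97 FPKM in d/d, a log2 ratio of 2.80, with Cyp11b1, the 11beta-hydroxylase, at 0 and 0.375 FPKM below the filter. Cyp21a1 lies on chromosome 17 from 34801348 to 34804561 on the minus strand, and 102 of its 2140 exon bases overlap the pseudogene Tnxa on the other strand. Tnxa was 0.855 FPKM in f/f against 0.134 in d/d, so it was lower where Cyp21a1 was higher. Whether Cyp21a1 shares fragments with similar sequences elsewhere was not examined, so its single value is uncertain. All 3 measured genes of the group passed the filter through 1 library alone.

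Ovarian tissue, which makes steroids, could be carried over with a uterus, and its markers were read beside these genes. Of 10 ovary markers 5 reached 1 FPKM. The luteal hormone receptor Lhcgr was 0.201 FPKM in f/f against 0.0553 in d/d, and the follicle and egg markers Fshr and Zp3 were listed at 0 in both. The summed ovary list was 24.7 FPKM in f/f against 216 in d/d, but 182 of the latter came from Inhbb, an activin subunit, and 31.2 from Foxl2, both of which the uterus also expresses. The egg gene Gdf9 was 1.34 FPKM in f/f against 0.488 in d/d, Akr1b7 was 2.03 and 0.654, and the inhibin subunit Inha was 1.19 and 1.20, all within the limit. Gdf9 and Akr1b7 were above the filter in f/f alone but were not called, whereas the 2 called markers, Foxl2 and Inhbb, were higher in d/d. The median log2 ratio of the measured ovary markers was 0.01. The part of ovarian tissue in these values was not tested.

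Among the 17beta-hydroxysteroid dehydrogenases, 6 of 11 were measured, 2 of them were higher in d/d and none was lower. Hsd17b2, which oxidises estradiol to the weaker estrone, was 1.19 FPKM in f/f against 4.85 in d/d, 4.08-fold higher. Hsd17b11, a lipid-droplet enzyme that oxidises an androgen metabolite, was 53.5 FPKM in f/f against 126 in d/d, 2.36-fold higher. Hsd17b1, which makes estradiol from estrone, stayed under 1 FPKM at 0.144 and 0.330, about 3.42 and 9.20 fragments. The level of the oxidising Hsd17b2 was above that of the reducing Hsd17b1 in both libraries, with too few Hsd17b1 fragments for a stated ratio. Other members of the family were not weighed, so this is no balance of enzymes that form and oxidise estradiol.

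The other measured genes of that family are also known from lipid metabolism, and none of them was called. Hsd17b10, a mitochondrial enzyme of isoleucine breakdown, was 125 FPKM in f/f against 94.0 in d/d. The fatty acid elongation enzyme Hsd17b12 was 60.1 and 72.3 FPKM, and the peroxisomal Hsd17b4 was 41.9 and 42.6. Hsd17b7, which also works in cholesterol synthesis, was 2.33 FPKM in f/f against 4.75 in d/d and lay just inside the limit, at a log2 ratio of 0.79. Hsd17b3 and Hsd17b6 were listed at 0 in both libraries, and Hsd17b13 was 0.365 FPKM in f/f against 0.0523 in d/d, below the filter like Hsd17b14, which was listed at 0 in d/d.

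The glucocorticoid enzymes did not pass the 2-fold rule. Hsd11b2, which inactivates corticosterone, was 117 FPKM in f/f against 191 in d/d, a log2 ratio of 0.70, and was the most abundant member on average. Hsd11b1, which regenerates corticosterone, was 5.35 FPKM in f/f against 3.78 in d/d. The inactivating enzyme was 21.9 times the regenerating one in f/f against 50.5 times in d/d. H6pd, which supplies Hsd11b1 with NADPH, was 66.8 and 85.3 FPKM.

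Of the 5alpha-reductases, Srd5a1 was lower in d/d. Srd5a1, which reduces progesterone and testosterone at carbon 5, was 11.1 FPKM in f/f against 3.61 in d/d, 3.08-fold lower, with a log2 ratio of -1.39. Srd5a3, which serves dolichol synthesis, was 24.5 and 27.8 FPKM, and Srd5a2, the androgen enzyme of the male tract, was listed at 0 in f/f against 0.0985 in d/d. The enzyme Akr1c14, described next, acts on the products of 5alpha-reduction. Its level was 1.55 times that of Srd5a1 in f/f against 33.3 times in d/d. That ratio was not planned and joins a gene called higher to a gene called lower, so it adds no separate difference.

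The Akr1c aldo-keto reductases held the largest summed difference upward of the 10 groups, on the scale of FPKM ratios. Their sum was 27.4 FPKM in f/f against 162 in d/d, 5.91-fold higher. Of 8 genes 5 were measured and 4 of these were higher, but Akr1c12 and Akr1c21 passed the filter through d/d alone, and among the 3 that passed in both libraries 2 were higher. Akr1c14, the mouse 3alpha-hydroxysteroid dehydrogenase, was 17.2 FPKM in f/f against 120 in d/d, 6.99-fold higher, and 234 of the 16263 genes had a log2 ratio as high as its 2.74. It gave 62.7% of the group's sum in f/f against 74.2% in d/d.

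Its neighbours Akr1c13 and Akr1c12 were higher as well. Akr1c13 was 3.57 FPKM in f/f against 22.3 in d/d, 6.26-fold higher (log2 ratio 2.35), and Akr1c12 was 0.468 and 13.4 (log2 ratio 3.30). The f/f value of Akr1c12 stands for about 10.5 fragments, so a fold against it would be imprecise. Akr1c21, a 17alpha-hydroxysteroid dehydrogenase in the mouse, was listed at 0 in f/f against 1.19 FPKM in d/d. Akr1c19 was the measured exception, at 6.02 FPKM in f/f against 4.66 in d/d. Akr1c18, the enzyme that inactivates progesterone to its 20alpha-hydroxy form in the mouse ovary at the end of pregnancy, stayed under the filter at 0.166 and 0.0951 FPKM.

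These genes form a cluster on chromosome 13 of GRCm38, where Akr1c14 lies from 4049011 to 4090688, Akr1c13 from 4191150 to 4205596, Akr1c19 from 4228700 to 4252843, Akr1c12 from 4268176 to 4279433 and Akr1c21 from 4574075 to 4586541. The uncalled Akr1c19 lies between the higher Akr1c13 and Akr1c12. The coding sequences of Akr1c12 and Akr1c13 were 96.2% identical over 969 nt, so fragments may have been shared between them and each single value is uncertain. Akr1c14 was 73.3% identical to Akr1c12 and 73.6% to Akr1c13, and its value rests less on that sharing.

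The sequence just before the RefSeq start is shown for the 3 Akr1c genes that were higher and lie above 5 FPKM in d/d. These neighbours differed in the same direction, and they were chosen after their windows and motif matches were seen. Each window is the 250 bases upstream of the RefSeq start on GRCm38.p6, read 5′ to 3′ along the gene. In the order printed, the windows lie at chr13:4059341-4059590 on the plus strand, chr13:4190937-4191186 on the plus strand and chr13:4279400-4279649 on the minus strand. The RefSeq start of Akr1c14 lies inside the annotated span given above, so its window is within that span and not before it. The Akr1c13 and Akr1c12 windows also run a short way into their annotated spans, which begin at 4191150 and end at 4279433.
Akr1c14: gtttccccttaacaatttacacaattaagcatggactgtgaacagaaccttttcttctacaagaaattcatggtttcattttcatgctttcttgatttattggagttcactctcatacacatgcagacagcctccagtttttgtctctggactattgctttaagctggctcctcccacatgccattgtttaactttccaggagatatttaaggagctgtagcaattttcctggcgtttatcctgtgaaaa
Akr1c13: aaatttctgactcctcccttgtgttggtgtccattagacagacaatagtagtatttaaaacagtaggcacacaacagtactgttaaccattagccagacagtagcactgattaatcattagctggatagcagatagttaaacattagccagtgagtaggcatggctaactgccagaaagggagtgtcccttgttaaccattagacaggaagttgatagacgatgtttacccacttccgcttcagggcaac
Akr1c12: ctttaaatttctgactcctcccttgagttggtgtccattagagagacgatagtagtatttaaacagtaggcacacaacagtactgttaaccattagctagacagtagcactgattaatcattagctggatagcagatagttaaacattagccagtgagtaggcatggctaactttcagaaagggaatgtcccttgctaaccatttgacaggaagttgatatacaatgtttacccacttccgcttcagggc
All letters are in lower case because none of the motifs given here was found in them. The motifs, on both strands, were the aryl hydrocarbon receptor core GCGTG, the antioxidant core TGACNNNGC the Nr5a1 site AAGGTCA and the TATA box TATAAA, which 28.3%, 10.2%, 4.09% and 12.3% of 32544 windows of the same length hold. The Akr1c12 and Akr1c13 windows were 92.4% identical, with 19 differences in 250 bases, and Akr1c14 shared 45.2% and 44.4% with them. Akr1c12 and Akr1c13 are thus alike in these windows as well as in the coding sequence, whereas Akr1c14 differs from both.

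The sulfotransferases differed most in the other direction. The 27 genes summed to 169 FPKM in f/f against 13.7 in d/d, 12.4-fold lower. Of the 5 measured, 3 were lower and 2 higher, and of the 2 that passed the filter in both libraries 1 was lower and 1 higher. In f/f 72.3% of the sum came from Sult1d1 and in d/d 1.77% did.

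Sult1d1, which sulfates catecholamines and phenols, was 122 FPKM in f/f against 0.243 in d/d, 504-fold lower. Its log2 ratio of -6.63 was reached by 9 of the 16263 genes, itself included. Sult1d1 passed the filter through f/f alone, so it is high there by the way it was admitted. The d/d value stands for about 12.3 fragments over the longest annotated transcript, so the fold itself is imprecise. Sult1a1, the phenol sulfotransferase, was 39.8 FPKM in f/f against 5.46 in d/d, 7.29-fold lower (log2 ratio -2.66). Both are abundant f/f genes that were lower, and their coding sequences are 64.1% identical. Sult1a1 shares 61 of 1507 exon bases with Sgf29 on the other strand, which was 22.7 and 16.5 FPKM.

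The other sulfotransferases were low. Sult5a1 was 4.34 FPKM in f/f against 0.239 in d/d (log2 ratio -2.11). Sult4a1, known mainly from the brain, was 1.56 FPKM in f/f against 4.86 in d/d (1.19), and Sult1c2 was 0.227 and 2.36 (1.45). Sult1e1, the estrogen sulfotransferase, was listed at 0 in f/f against 0.0454 FPKM in d/d, and Sult2b1, which sulfates cholesterol, was 0.674 and 0.325. The estrogen-specific enzyme was thus near 0 in both libraries.

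Cyp1b1, a P450 that hydroxylates estradiol at carbon 4, had the lowest log2 ratio after Sult1d1. It was 13.2 FPKM in f/f against 0.0356 in d/d, and the d/d value stands for about 3.81 fragments, too few for a stated fold. At or below its log2 ratio of -3.78 lay 62 of the 16263 genes. Cyp1b1, like Sult1d1, passed the filter through f/f alone. Its relative Cyp1a1, named here after its values were seen, was 0.756 and 0.0185 FPKM and under the filter, about 36.2 and 1.04 fragments. Cyp1b1 and Cyp1a1 are textbook targets of the aryl hydrocarbon receptor Ahr, which was itself 7.86 FPKM in f/f against 9.21 in d/d. Other Ahr targets were not collected, and the part of Ahr was not tested.

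**Figure D3:**
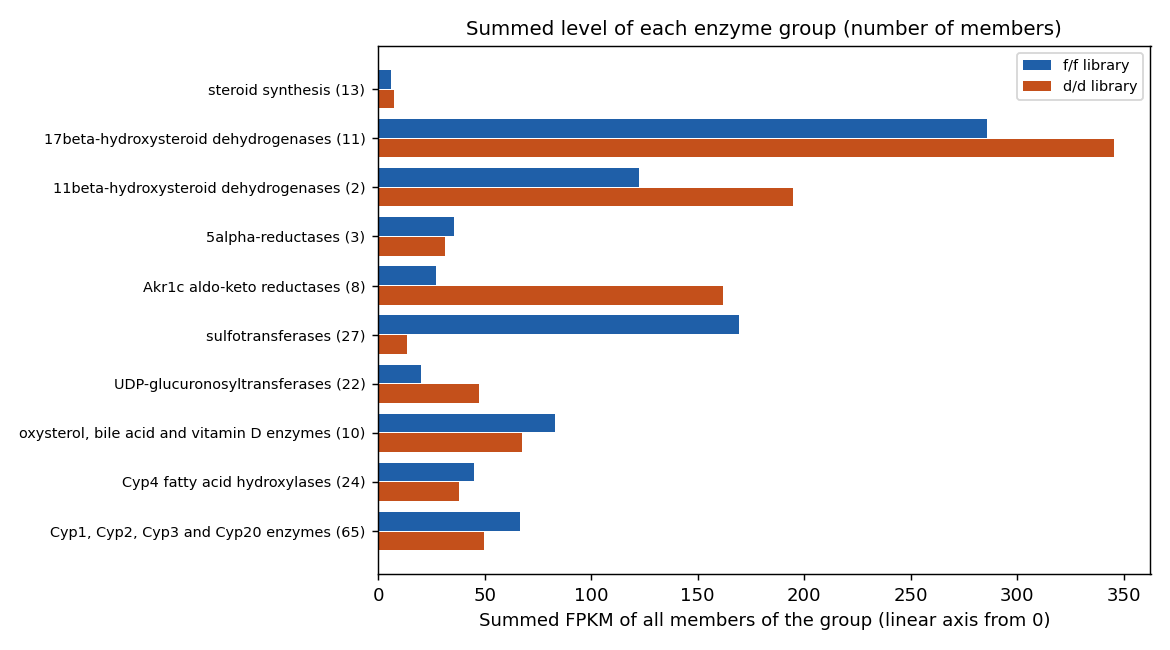
Summed FPKM of all members of each enzyme group (horizontal bars from 0) in the f/f library (blue) and the d/d library (orange), with the number of genes in brackets. The sulfotransferase bar is 169 in f/f against 13.7 in d/d, and the Akr1c bar is 27.4 and 162.

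The upstream windows of the pair with the largest differences downward are shown, a choice made after windows and motif matches were seen. They are Sult1d1 at chr5:87569007-87569256 and Cyp1b1 at chr17:79715062-79715311, both on the minus strand of GRCm38.p6 and read 5′ to 3′ along the gene, with the receptor core GCGTG, here on the reverse strand as CACGC, in capitals.
Sult1d1: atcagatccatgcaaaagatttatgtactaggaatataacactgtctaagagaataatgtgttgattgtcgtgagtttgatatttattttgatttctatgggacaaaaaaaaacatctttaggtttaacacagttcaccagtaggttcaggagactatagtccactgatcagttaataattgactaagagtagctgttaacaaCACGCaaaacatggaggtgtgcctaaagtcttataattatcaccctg
Cyp1b1: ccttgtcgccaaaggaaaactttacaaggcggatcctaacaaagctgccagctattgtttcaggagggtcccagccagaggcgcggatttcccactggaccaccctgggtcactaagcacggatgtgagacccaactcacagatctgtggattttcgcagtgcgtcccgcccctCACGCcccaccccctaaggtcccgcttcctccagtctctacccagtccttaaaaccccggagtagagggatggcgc
Each holds 1 match, ending 42 bases before the start in Sult1d1 and 71 bases before it in Cyp1b1, and no motif overlapped another. The Sult1d1 window runs a short way into the annotated span of the gene, which ends at 87569027. Among the windows of all measured members, which cover 35 of the 45 genes, the core was in 4 of 10 windows of lower genes, 1 of 9 of higher genes and 6 of 17 of the others. The window of Sult1a1, not printed, held none of the motifs. The share in all windows was 28.3%, so a match is common and is a description only.

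The P450s of foreign compound and arachidonate metabolism were mostly under the filter. Of the 65 genes of the Cyp1, Cyp2, Cyp3 and Cyp20 families, 8 were measured, and 40 were listed at 0 in both libraries, the liver P450 Cyp3a11 among them. Cyp2f2, an airway enzyme that activates naphthalene, was 1.14 FPKM in f/f against 5.53 in d/d, and Cyp2e1, the ethanol-oxidising enzyme, was 0.0979 and 2.04. These were the 2 higher genes of the families. Cyp20a1, whose substrate is unknown, was the most abundant in f/f at 29.0 FPKM and was 21.5 in d/d.

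The remaining measured genes of these families were not called. The arachidonate epoxygenase Cyp2j6 was 5.49 FPKM in f/f against 9.95 in d/d, and its relative Cyp2j9 was 2.30 and 1.04, so these relatives differed in opposite directions within the limit. Cyp2s1, which is known from epithelia, was 3.34 and 1.42, and Cyp2d22 was 9.86 and 6.60. Of the 24 Cyp4 genes, whose proteins hydroxylate the ends of fatty acid chains, 6 were measured, 1 was lower and none was higher. Cyp4b1 was 3.96 FPKM in f/f against 1.05 in d/d (log2 ratio -1.27). The others had log2 ratios from -0.64 (Cyp4f13, 10.5 and 6.40 FPKM) to 0.34 (Cyp4f18, 7.42 and 9.66 FPKM), with Cyp4f16 at 13.6 and 13.0 FPKM, Cyp4v3 at 5.41 and 5.07 and Cyp4f17 at 3.61 and 2.29.

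The enzymes of oxysterols, bile acids and vitamin D held 3 lower genes and no higher one among 6 measured of 10, and 2 lower among the 4 that passed the filter in both libraries. Cyp27a1, the mitochondrial sterol 27-hydroxylase, was 34.3 FPKM in f/f against 11.9 in d/d, 2.87-fold lower. Cyp7b1, which acts on the 27-hydroxysterol that Cyp27a1 makes, was 6.77 and 2.85 FPKM, 2.37-fold lower, and at a log2 ratio of -1.01 it was the gene just past the limit. Cyp46a1, the cholesterol 24-hydroxylase of the brain, was 1.57 and 0.139. All 3 act on cholesterol or its oxysterols and were lower in d/d.

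Cyp39a1, which acts on the 24-hydroxysterol, and Hsd3b7, which follows Cyp7b1 and Cyp39a1 in bile acid synthesis, did not share that direction. Cyp39a1 was 6.19 FPKM in f/f against 9.04 in d/d, and Hsd3b7 was 31.7 and 42.7, both within the limit. Of the exon bases of Hsd3b7, 62.0% are shared with the gene model Gm49388 on the same strand, which was 0.468 FPKM in f/f but listed at 0 in d/d. Cyp2r1, which makes 25-hydroxyvitamin D, was 1.90 and 0.660 FPKM (log2 ratio -0.81), and Cyp27b1 and Cyp24a1, the enzymes that activate and degrade it, stayed under 1 FPKM.

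Of the 22 UDP-glucuronosyltransferases, 14 were listed at 0 in both libraries and 2 were measured. Ugt1a7c was 7.35 FPKM in f/f against 35.3 in d/d, 4.80-fold higher, with a log2 ratio of 2.12. Ugt1a6a was 11.6 and 10.3 FPKM. The order of the pair was thus exchanged, Ugt1a6a being 1.58 times Ugt1a7c in f/f and Ugt1a7c 3.42 times Ugt1a6a in d/d. This comparison was not planned.

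Both belong to the Ugt1a locus on chromosome 1, where each gene has a first exon of its own and shares the later exons. In the annotation 2170 of the 4219 exon bases of Ugt1a7c, 51.4%, also belong to Ugt1a6a. How the fragments of the shared part were divided was set by the authors' estimate, so the single values are uncertain, while the summed group was 20.04 FPKM in f/f against 47.3 in d/d.

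Genes that work with these enzymes had list medians near 0. Of 16 electron donors and steroid-handling partners, all measured, 2 were higher and none was lower, with a median log2 ratio of 0.08. The P450 reductase Por was 49.1 FPKM in f/f against 67.0 in d/d, cytochrome b5 Cyb5a was 254 and 208, and the adrenodoxin Fdx1, the electron donor of Cyp11a1 and Cyp27a1, was 42.7 and 44.98. The higher genes were Stard3, a cholesterol carrier of late endosomes, at 16.98 and 45.9 FPKM, and the ferredoxin Fdx2, at 57.5 and 123. Whether Fdx2 serves any of these P450s was not examined.

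The supply side of conjugation held a single called gene. Of 19 measured of 21 genes, 1 was lower and none was higher, with a median of 0.13. Papss1, which makes the sulfate donor used by Sult1d1 and Sult1a1, was 49.0 FPKM in f/f against 58.5 in d/d, and Ugdh, which makes the glucuronate donor, was 58.2 and 46.6. The lower gene was Abcg2, an exporter of steroid sulfates, at 96.9 and 36.2 FPKM. The sulfate donor enzyme was thus within the limit where Sult1d1 and Sult1a1 were called lower.

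Of 15 transcription regulators 9 were measured, 1 was higher and 2 were lower, with a median of 0.04. Nfe2l2, the oxidant-response factor also called Nrf2, was 54.4 FPKM in f/f against 114 in d/d. Nr1h3, an oxysterol receptor, was 20.98 and 5.53, and the vitamin D receptor Vdr was 1.84 and 0.338. The drug receptors Nr1i2 and Nr1i3 and the steroidogenic factor Nr5a1 were at or under 0.0821 FPKM in both libraries. Of 10 lipid oxide partners 3 were higher and 2 lower (median -0.08), led by the lipoxygenase Alox15 at 82.2 and 16.4 FPKM, the phospholipase Pla2g4a at 18.1 and 64.7, and the epoxide hydrolases Ephx4 at 2.70 and 8.14 and Ephx1 at 18.2 and 39.4. Ephx3 was the other lower gene, at 1.25 and 0.127 FPKM.

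**Figure D4:**
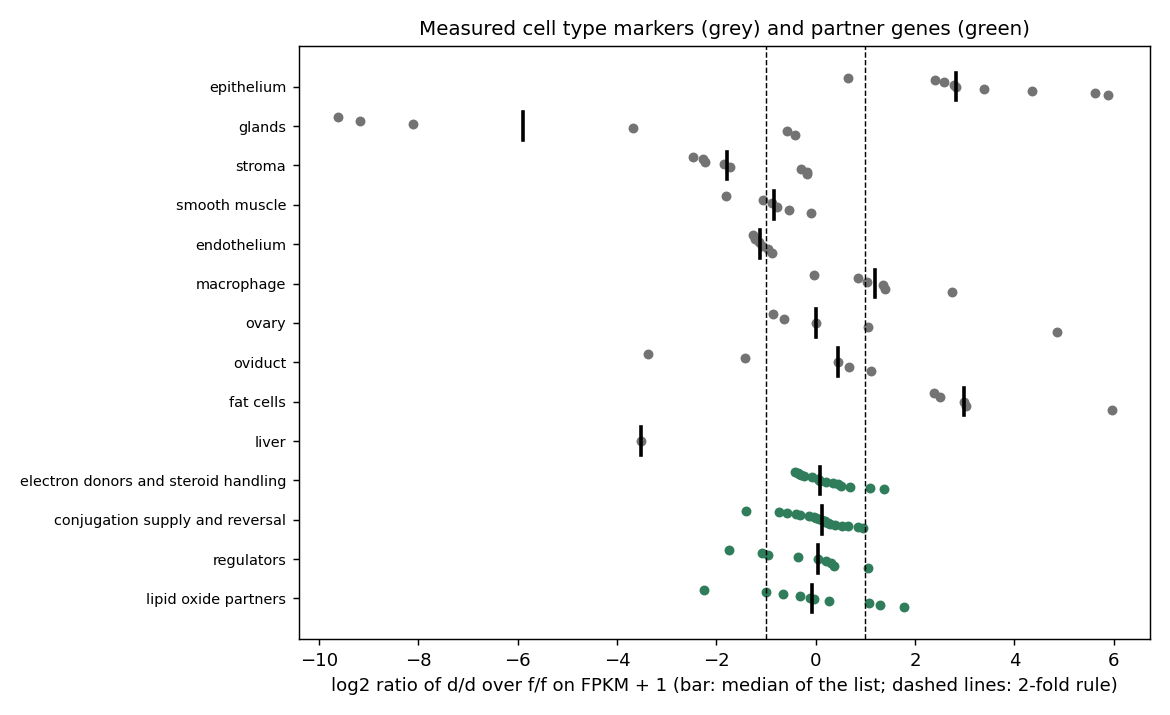
Log2 ratios, d/d divided by f/f, of FPKM + 1 (horizontal axis) for each measured gene of the cell type marker lists (grey) and of the partner lists (green), with a black bar at each list's median and dashed lines at the 2-fold rule. Partner medians lie between -0.08 and 0.13, whereas the marker medians run from -5.90 (glands) to 2.98 (fat cells). The gland genes themselves run from -9.63 (Prss29) to -0.42 (Foxa2).

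Markers of several cell types differed between the libraries alongside the enzymes. Of 9 epithelial markers 8 were higher and none was lower (summed FPKM 289 in f/f against 2226 in d/d), and of 6 gland markers 4 were lower and none was higher (1821 and 5.01). Stromal markers had 5 lower of 8 (3615 and 1995), smooth muscle 2 lower of 6 (4820 and 3155), endothelium 4 lower of 6 (320 and 146) and macrophages 4 higher of 6 (450 and 1169), with none called the other way. Akr1c14 and Ugt1a7c were higher in d/d, as were the called epithelial and macrophage markers. Sult1d1, Sult1a1 and Cyp1b1 were higher in f/f, as were the called gland, stromal, smooth muscle and endothelial markers. With 2 libraries every called enzyme shares its direction with some of these lists, so a shared direction does not place an enzyme in a cell type.

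Tissue next to the uterus was read in the same way. All 5 measured of 7 fat-cell markers were higher, the list summing to 2.96 FPKM in f/f, with 4 genes listed at 0, and to 113 in d/d. Of these Cfd was 0.0867 and 66.6 FPKM, Fabp4 2.67 and 28.9, Retn 0 and 6.91, and Cidec 0 and 4.69. Oviduct markers had 1 higher and 2 lower of 5 (195 and 248 FPKM, mostly Tubb4b at 165 and 224), with Ovgp1 at 13.0 and 0.352, Cfap126 at 3.53 and 0.675 and Foxj1 at 0.130 and 1.46. Of 5 liver markers the single measured one, Ttr, was 10.5 FPKM in f/f but listed at 0 in d/d, and Alb was 0.260 and 0.0247. The part of these cell types in the enzyme values was not tested.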

How the data were processed

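RNA from whole uterus was measured in 1 f/f and 1 d/d library. The deposited values are FPKM made by the authors, 1 value for each of 55483 rows a library. HISAT2 version 2.2.1, Cufflinks version 2.2.1 and build mm10 are named in the submitters' processing notes. The sources used here do not give the annotation release, strandedness or options. The files hold no counts.

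With Python 3.11.15 and pandas 2.3.3, rows sharing a symbol were summed (120 beyond the first of a symbol), a filter of 1 FPKM in at least one library was applied and log2 ratios were taken on FPKM + 1, which understates the change of low genes. With 1 library per genotype no test was made. Depth was estimated from single-transcript genes of 2 kb or more, where 74.5% of 748 low values in f/f against 70.6% of 823 in d/d lay within 0.1 of a whole number. Full transcript length stood in for the effective length, so depths and fragment numbers are approximate. Positions, lengths and overlaps come from GENCODE M21 on GRCm38, which held all 185 gene IDs and whose release was not matched to the authors'. Coding and upstream identities are edit distances over the longer sequence. Promoter sequences are from RefSeq on GRCm38.p6. Only the fold rule was tried on simulated data, with planted changes so large that it had to find them.

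The enzymes, the partner and marker lists and the motifs were chosen with earlier results of these data known. An estrogen receptor element was also searched and is not reported, and the printed promoters were chosen after their windows and motif matches were seen. Every member at 1 FPKM or more could be named, with textbook steroid enzymes below that. From each list up to 4 genes past the 2-fold rule were named, or up to 2 of the highest, and others in the lists were named after their values were seen. Pseudocounts, filters, scalings and gene models were varied.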

Additional observations from a re-analysis of the deposited data

How the results depend on the processing

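No paired analysis was possible because each genotype has 1 library. The counts of 12 higher and 11 lower enzymes changed by more than 1.5 times under 3 settings, which remove low genes or shrink their ratios. A pseudocount of 5 gave 6 higher and 4 lower, a filter of 5 FPKM gave 7 and 6, and a filter of 1 FPKM in both libraries gave 7 and 5. Under the pseudocount of 5, 13 of the 23 calls were lost, all of genes under 12 FPKM, Star, Cyp11a1, Srd5a1, Cyp7b1 and Hsd17b2 among them. Pseudocounts of 0.1 and 0.5 kept all 23 and added 3 and 1 lower genes. Scaling to the same FPKM total, to the upper quartile or to a median ratio of 1, the largest row of a symbol, leaving out short transcripts and keeping protein-coding genes each kept all 23, as did no filter. Upper-quartile scaling moved the median of all genes to -0.10. With the filter and the pseudocount at 1 TPM, a setting added after the data were seen, 11 were higher and 10 lower, as Cyp7b1 lost its call and Akr1c21 fell under the filter. No called enzyme changed sign under any of these settings. Of 557 single-gene values under them, 523 stayed within 1.5-fold of the main ratio and 34 moved further, all by the pseudocount, as for Sult1d1 (-4.60 with 5, -8.48 with 0.1). A level under about 0.05 FPKM rests on a few fragments at these depths.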

Other observations

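Relatives of the enzymes that the choice by symbol leaves out were read in the same libraries and were picked with their values in view. Of 16 measured short-chain dehydrogenases of the Dhrs, Rdh and Hsdl families, 2 were higher in d/d, 2 lower and 12 neither. Over all genes that passed the filter, 18.4% were called. Dhrs9, which can oxidise retinol and 3alpha-hydroxysteroids, was 0.316 FPKM in f/f against 10.2 in d/d, and the retinol dehydrogenase Rdh10 was 25 and 63.9. The lower genes were Rdh12, at 5.43 and 0.907 FPKM, and Rdh5, at 5.11 and 1.13. These retinol enzymes went both ways, and Dhrs9 passed the filter through d/d alone and Rdh12 through f/f alone.

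None of the 6 measured Akr1a, Akr1b and Akr1e genes passed the 2-fold rule, among them Akr1a1 at 439 and 477 FPKM, Akr1b3 at 31.3 and 32.1 and Akr1b8 at 29.5 and 19.1. The higher values of Akr1c12, Akr1c13 and Akr1c14 were not seen in these other aldo-keto reductases, a difference that could not be tested. Of 10 measured Chst genes, which sulfate sugar chains with the same donor as the Sult enzymes, 4 were higher and 1 lower. The share called over all genes was 18.4%, and so small a family picked by its values gives no family result. Chst8, which sulfates N-acetylgalactosamine on glycoprotein hormones, differed most, at 1.19 FPKM in f/f against 201 in d/d (log2 ratio 6.53). Chst7 was 3.21 and 12.8 FPKM, Chst11 was 10.1 and 25.9, Chst13 was 0.924 and 3.93, and Chst2 was 7.47 and 2.202. Chst13 passed the filter through d/d alone.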
